A study of Mus musculus with 9 samples.

Results

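Mouse morulae fathered by males given 10% ethanol were compared with morulae fathered by control males, across the whole transcriptome. The members are the 6 libraries whose treatment label reads 10% EtOH (3 libraries) or Control (3 libraries), out of 9 in the series. The remaining 3 libraries came from sires labelled 6% EtOH. They entered the filter of genes, the scaling and the shared estimate of spread, and their values are set beside the others at the end. All embryos were labelled C57BL/6J and were made by in vitro fertilization with the Nakagata protocol in CARD media, so that the groups differed, as far as the labels go, in what the sire had received and not in what the embryo met. Total RNA was sequenced, and each file gave raw featureCounts counts per gene for 1 library. The labels do not give the number of embryos or sires behind a library, nor how long the sires drank. The tests therefore measure how far these libraries scatter, which may have technical sources. In bulk RNA of this kind, fewer cells of a type and less RNA per cell cannot be told apart.

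The morula is the stage at which blastomeres compact, gain apical and basal sides, and begin to part into an outer layer that becomes trophectoderm and inner cells that become epiblast and primitive endoderm. By then the embryo runs on its own transcripts, those of the oocyte having mostly been degraded, and its energy comes from mitochondrial respiration with rising use of glucose. Alcohol taken by a father before conception is studied because sperm carry DNA methylation, histone marks and small RNAs into the egg, and because ethanol and its product acetaldehyde bear on oxidative stress, the folding of proteins in the endoplasmic reticulum and one-carbon metabolism.

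The 10% ethanol libraries held 19574710, 27619281 and 8282411 counts, and the control libraries 11026334, 23553941 and 6813356. The count column had a long header naming RNA STAR in 10% ethanol 1, 10% ethanol 2 and control 2, and a short header in 10% ethanol 3, control 1 and control 3; the 3 with long headers were also the 3 deepest. Across genes, which are not independent replicates, log2 CPM correlated at 0.911 between 10% ethanol 1 and 2, at 0.894 and 0.898 between these and control 2, and at 0.794 to 0.852 in the other 12 pairs, so that control 2 was closer to 10% ethanol 1 and 2, whose header form it shares, than to the other controls. Each pair differed by more than counting noise (chi-square over its degrees of freedom of 116 or more). CPM, depth-normalised counts, are given on library sizes scaled by TMM, a trimmed mean factor.

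The RNA had the markers of a morula. Of the 12 morula markers, all but Sox2 were detected in each of the 6 libraries; Sox2, a pluripotency factor, had 2.30, 2.27 and 0 CPM with 10% ethanol sires, against 1.31, 6.29 and 3.96 CPM in controls. Pou5f1, the OCT4 gene of pluripotent cells, stood at 72.9, 61.8 and 57.8 CPM with 10% ethanol sires and at 42.5, 71.9 and 32.0 CPM in controls. Cdx2, the trophectoderm regulator, had 135, 126 and 11.3 CPM with 10% ethanol sires, against 75.04, 69.1 and 93.7 CPM in controls. Summed defining markers of cumulus cells (10 genes), sperm (7), blood (6) and fibroblasts (4) stayed at or below 0.798 CPM in each of the 6 libraries, while longer lists of such genes, described last, summed higher. The 10% ethanol 3 library stood apart. Its 5 markers of the 2-cell stage, Zscan4c, Zscan4d, Tcstv1, Tcstv3 and Zfp352, summed to 398 CPM, against 3.35 and 1.46 CPM in 10% ethanol 1 and 2 and 13.1, 6.00 and 0.440 CPM in controls.

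No single gene passed the test over the transcriptome. By edgeR's quasi-likelihood test with Benjamini-Hochberg adjustment, 0 of 12488 tested genes (percent called 0) had an adjusted p under 0.05, and the smallest adjusted p was 0.9999. Genes at an unadjusted p under 0.05 numbered 267, or 2.14 percent: 107 were higher with 10% ethanol sires (0.857 percent) and 160 lower (1.28 percent). With no difference in any gene, a share of about 0.05 would fall there, so this too was no excess. With library size as the only scaling there were 265, of which 75 were higher and 190 lower. Leaving out 10% ethanol 3 gave 452 of 14099 tested, and leaving out 6% ethanol 1, 2 or 3 gave 442, 497 or 459 of 13631, 14324 or 14303. DESeq2 called 10 genes, or 0.0801 percent, with 482 at an unadjusted p under 0.05, and limma voom called 0, with 576. Standard errors of the log2 fold change had a median of 1.01 and a minimum of 0.34, so that a 2-fold difference lay within about 1 standard error for a typical gene.

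Separation of the groups was also counted without a test. In 1006 genes, or 8.06 percent of those tested, the 3 libraries of 10% ethanol sires all lay on one side of the 3 controls: 548 (4.39 percent) were higher and 458 (3.67 percent) lower. By order alone, 3 exchangeable libraries against 3 would separate in a share of 0.1 of genes, so 8.06 percent was no excess. The median log2 fold change over all tested genes was -0.05, with 5885 genes (47.1 percent) above 0 and 6603 (52.9 percent) below. With library size as the only scaling that median was -0.18, and the lists described here moved by a like amount. Below, the counts and medians of gene lists are read against these shares. For every gene named, edgeR's adjusted p was at least 0.9999, so higher and lower describe these libraries and name no change that passed.

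**Figure D1:**
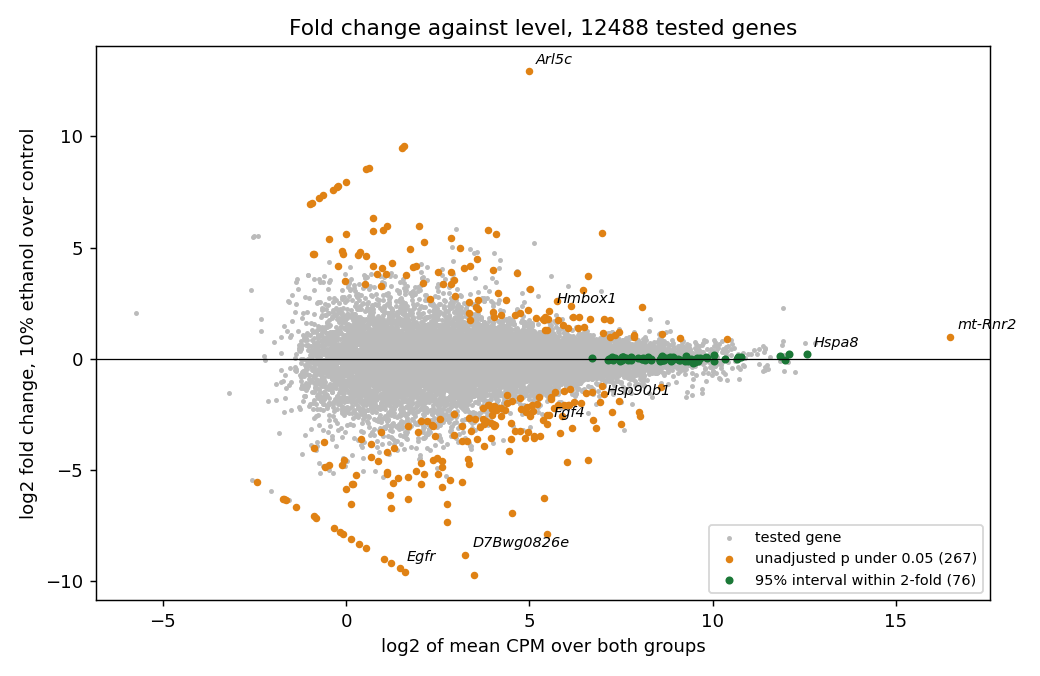
Log2 fold change of 10% ethanol over control libraries (vertical axis) against the log2 of the mean CPM over both groups (horizontal axis) for the 12488 tested genes, each a point. Orange points are the 267 genes at an unadjusted p under 0.05 and green points the 76 genes whose 95% interval lies within 2-fold; the green points sit among the most abundant genes, and the spread widens towards low levels.

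For 76 genes (0.609 percent) the data were tight enough to place the fold change within 2-fold in either direction at 95% confidence. Hspa8, the constitutive HSC70 chaperone, had 6468, 7288 and 5800.1 CPM with 10% ethanol sires, against 3889, 6713 and 6150.3 CPM in controls (log2 fold change 0.22, interval -0.54 to 0.99). Hsp90ab1, the cytosolic HSP90 beta chaperone, had 4206, 4632 and 3083 CPM with 10% ethanol sires, against 4234, 4305 and 3661 CPM in controls (-0.03, interval -0.77 to 0.70). The groups overlapped for both. Likewise bounded, at log2 fold changes of -0.10 to 0.20, were Pabpc1, the poly(A)-binding protein; Timd2, a cell surface receptor; Set, a histone chaperone; Arih2, a ubiquitin ligase; Map1lc3b, the LC3B protein of autophagosomes; Eif3c, an initiation factor; Psma1, a proteasome subunit; and Isyna1, which makes inositol phosphate from glucose phosphate.

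Among the 10 protein-coding genes of highest CPM in the 10% ethanol group, levels are compared per kilobase of exon. Alppl2, an alkaline phosphatase of early embryos and germ cells, had the highest level, 3889.5 ± 1237 CPM per kilobase with 10% ethanol sires and 2382 ± 1282 in controls (SD, n = 3 each). Sord, the sorbitol dehydrogenase, followed at 1717 ± 206 with 10% ethanol sires and 1887.5 ± 660 CPM per kilobase in controls. All 3 values of Alppl2 with 10% ethanol sires lay above those of Sord, and from Sord down neighbours in this order overlapped. Grn, which encodes the lysosomal growth factor progranulin, had 3666, 5277 and 5709 CPM with 10% ethanol sires, against 3568, 2890.3 and 2013 CPM in controls, without overlap (log2 fold change 0.79 ± 0.45 SE). Hsp90aa1, the inducible HSP90 alpha, had 2968, 4630.1 and 4060 CPM with 10% ethanol sires, against 4256, 6029 and 7273 CPM in controls (-0.59 ± 0.39). Gpd1l (0.64), Pabpc1 (0.20) and Gldc (0.16), the glycine cleavage enzyme, had overlapping groups. Lars2, the mitochondrial leucyl-tRNA synthetase, had 17258, 788 and 1091 CPM with 10% ethanol sires, against 2105, 333 and 1544 CPM in controls. Its log2 fold change was 2.26 ± 1.06 and became -0.49 without 10% ethanol 1. Compared after the values were seen, Lars2 ranked these libraries in the same order as nuclear 18S rRNA, Rn18s, described below. Rn18s took 1.92 percent of counts in 10% ethanol 1 and 1.28 percent in control 1, its highest shares. A link between Lars2 and ribosomal RNA reads was not tested.

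**Figure D2:**
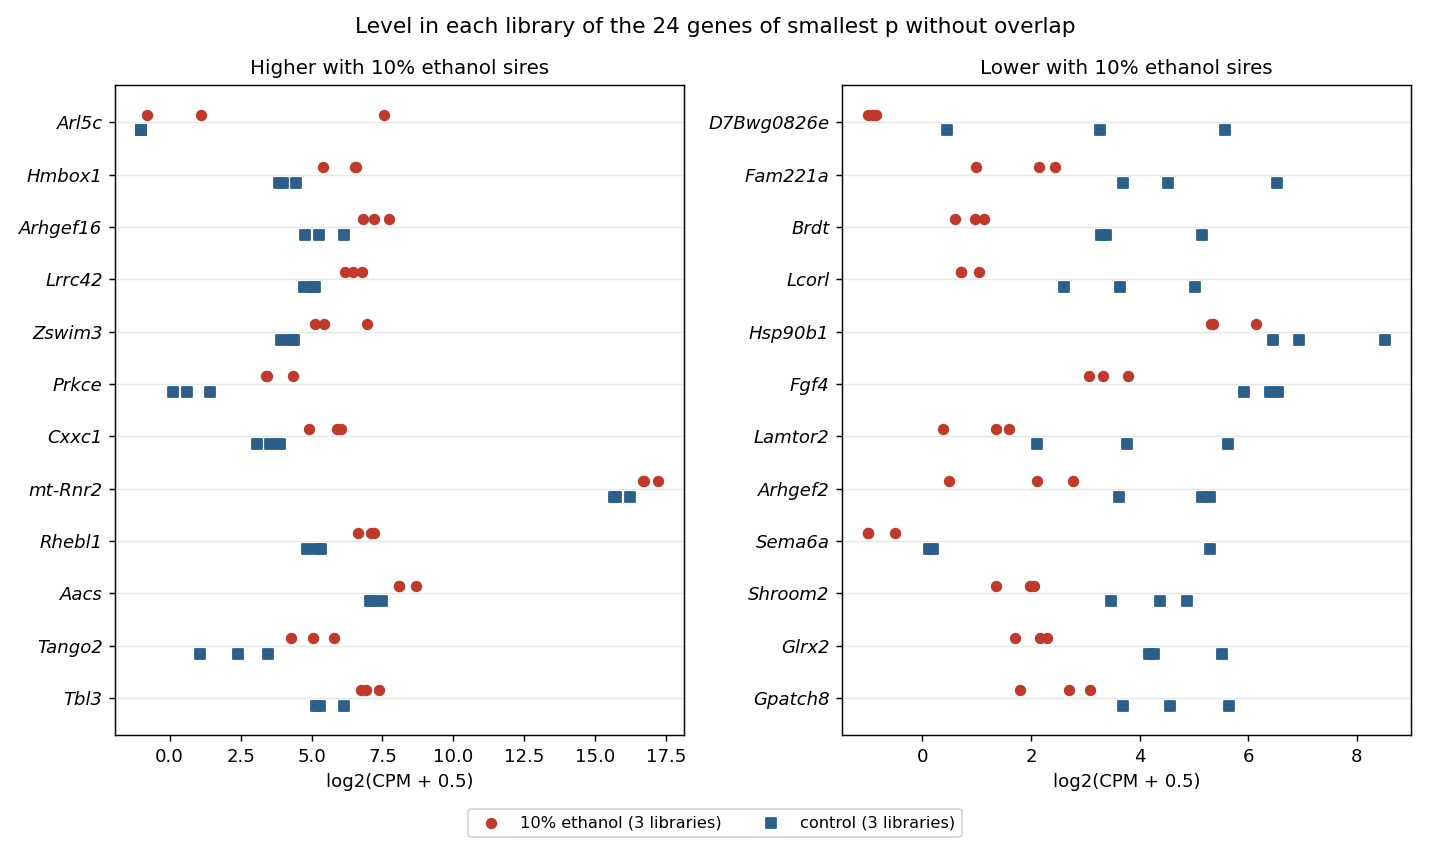
Level of the 12 higher genes (left) and 12 lower genes (right) of smallest p whose groups do not overlap, as log2(CPM + 0.5), with 1 point per library: red circles for the 3 libraries of 10% ethanol sires and blue squares for the 3 control libraries. Fgf4 and Hmbox1 show tight, well separated groups, while Arl5c and Sema6a owe their distance to 1 library.

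Of the tested genes, 633 (5.07 percent) separated the groups and had a mean of at least 10 CPM in a group; the 12 higher and 12 lower ones of smallest p are named. Fgf4 gave a clear separation among the lower genes. It encodes the fibroblast growth factor that the inner cells secrete and that directs neighbouring cells to primitive endoderm and sustains trophoblast stem cells. It had 9.51, 7.90 and 13.2 CPM with 10% ethanol sires, against 92.8, 83.5 and 59.8 CPM in controls. All 3 libraries of 10% ethanol sires lay several-fold below the lowest control, and the log2 fold change was -2.95 ± 0.93 SE, with a range of -3.17 to -2.80 when each library was left out in turn. Its signalling partners did not share that separation. Of the 28 tested genes of the primitive endoderm and FGF signalling list, 13 lay above 0 and 15 below, with a median of -0.01. The adaptor Grb2, which links receptors to RAS, had 120, 117 and 141 CPM with 10% ethanol sires, against 117, 69.4 and 68.9 CPM in controls (0.57 ± 0.49). Here 10% ethanol 2 and control 1 nearly met.

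Hsp90b1, which encodes GRP94, the HSP90 chaperone of the endoplasmic reticulum, had 39.1, 70.2 and 40.2 CPM with 10% ethanol sires, against 364, 87.7 and 122 CPM in controls. The groups did not overlap, and the highest control was control 1. The log2 fold change was -1.94 ± 0.61 SE and became -1.06 without control 1. Sel1l, the adaptor of the HRD1 ubiquitin ligase that removes misfolded proteins from the endoplasmic reticulum, had 27.4, 30.9 and 19.4 CPM with 10% ethanol sires, against 244, 48.6 and 38.3 CPM in controls (-2.09 ± 0.85, or -0.74 without control 1). In both genes control 1 lay far above the other controls.

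Promoters of 3 unfolded protein response genes are shown because members of that list share a known control sequence. The endoplasmic reticulum stress element, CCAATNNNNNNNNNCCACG, is the site at which ATF6 and NF-Y act on chaperone genes. It was sought on both strands in the 300 bases around RefSeq start sites of build GRCm38.p6. It was present in 8 of 33 matched promoters of the list (24.2 percent), in 20 of 8945 matched promoters of tested genes (0.224 percent) and in 37 of 27025 promoters in all (0.137 percent). The motif and the 3 promoters printed were chosen after the values were seen. Capitals mark the element, which in Hsp90b1 occurs once on each strand; the promoters lie at chr10:86705395-86705694 on the minus strand, chr2:34771840-34772139 on the plus strand and chr12:17266339-17266638 on the plus strand, all read 5′ to 3′ along the gene.
Hsp90b1: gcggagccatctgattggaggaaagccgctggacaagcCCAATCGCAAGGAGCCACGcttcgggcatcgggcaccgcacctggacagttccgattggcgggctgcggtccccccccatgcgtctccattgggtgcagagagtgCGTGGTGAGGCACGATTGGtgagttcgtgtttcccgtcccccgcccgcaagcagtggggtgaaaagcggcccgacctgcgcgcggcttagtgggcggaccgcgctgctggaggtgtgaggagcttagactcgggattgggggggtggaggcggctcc
Hspa5: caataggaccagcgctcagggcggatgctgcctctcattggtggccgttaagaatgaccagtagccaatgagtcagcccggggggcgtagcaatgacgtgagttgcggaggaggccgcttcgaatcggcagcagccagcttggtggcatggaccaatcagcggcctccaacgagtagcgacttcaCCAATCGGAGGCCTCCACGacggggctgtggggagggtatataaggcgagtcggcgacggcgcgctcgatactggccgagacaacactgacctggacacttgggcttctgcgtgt
Pdia6: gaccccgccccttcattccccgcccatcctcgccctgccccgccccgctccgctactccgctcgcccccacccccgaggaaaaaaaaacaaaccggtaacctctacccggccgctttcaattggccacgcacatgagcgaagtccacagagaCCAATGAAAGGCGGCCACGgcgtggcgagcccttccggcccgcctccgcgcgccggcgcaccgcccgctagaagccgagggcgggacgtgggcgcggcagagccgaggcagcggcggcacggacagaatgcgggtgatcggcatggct

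The 8 genes with the element all lay below 0 except Syvn1, by amounts that varied widely, and a shared movement was not tested. Their log2 fold changes were -1.94 for Hsp90b1, -1.12 for Pdia6, a disulfide isomerase, -1.096 for Creld2, -0.76 for Dnajc3, an inhibitor of eIF2 alpha kinases, -0.71 for Hspa5 and Calr, -0.11 for Canx and 0.01 for Syvn1. Hspa5, the BiP chaperone that senses unfolded proteins, had 257, 397 and 280 CPM with 10% ethanol sires, against 847, 375 and 307 CPM in controls. As with Hsp90b1, control 1 was the high library; the other 5 lay between 257 and 397 CPM. In the list as a whole, which joins the unfolded protein response to the integrated stress response, 11 of 38 genes lay above 0 and 27 below, with a median of -0.25. Dnajb9, a BiP co-chaperone named after its values were seen, went the other way, at 136, 143 and 338 CPM with 10% ethanol sires, against 85.7, 125 and 121 CPM in controls. The list's median was 0.04 without control 1, -0.59 without control 3, -0.06 among long-header libraries and -1.09 among short-header libraries. Cytosolic heat shock and chaperone genes stood 17 above and 17 below of 34, with a median of -0.0037.

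The other lower genes of smallest p covered varied functions. Fam221a, a gene of little known function, had 3.92, 4.93 and 1.48 CPM with 10% ethanol sires, against 22.6, 12.4 and 91.3 CPM in controls (log2 fold change -3.60 ± 0.95 SE, or -2.33 without control 3). Lcorl, a transcription factor associated with body size in mammals, had 1.57, 1.13 and 1.14 CPM with 10% ethanol sires, against 12.002, 31.8 and 5.57 CPM in controls (-3.68 ± 1.099). Lamtor2, a subunit of the Ragulator complex that holds mTORC1 at the lysosome, had 2.51, 2.05 and 0.798 CPM with 10% ethanol sires, against 48.7, 13.2 and 3.81 CPM in controls (-3.60 ± 1.16, or -2.24 without control 1). The groups did not meet in any of the 3, and control values ranged widely.

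Cytoskeletal and redox genes were also among them. Arhgef2, the microtubule-bound activator of RHOA known as GEF-H1, had 6.38, 3.80 and 0.912 CPM with 10% ethanol sires, against 38.9, 35.1 and 11.9 CPM in controls (-2.94 ± 0.96). Shroom2, an actin-binding protein of apical junctions, had 3.66, 3.44 and 2.05 CPM with 10% ethanol sires, against 28.8, 20.2 and 10.6 CPM in controls (-2.70 ± 0.91). Glrx2, the mitochondrial glutaredoxin, had 2.77, 4.39 and 3.99 CPM with 10% ethanol sires, against 18.7, 17.6 and 45.3 CPM in controls (-2.87 ± 0.99). In these 3 genes the highest library of 10% ethanol sires lay well below the lowest control. Gpatch8, a zinc finger and G-patch protein, had 2.98, 6.03 and 7.98 CPM with 10% ethanol sires, against 49.4, 12.5 and 23.0 CPM in controls (-2.32 ± 0.81). Sema6a, a membrane semaphorin, had 0.209, 0 and 0 CPM with 10% ethanol sires, against 0.653, 38.7 and 0.586 CPM in controls. Its distance came from control 2, and without that library the fitted log2 fold change was -2.93 in place of -7.35.

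The higher genes of smallest p had closer groups. Hmbox1, a homeobox protein that binds telomere repeats, had 42.1, 92.3 and 93.7 CPM with 10% ethanol sires, against 21.6, 15.3 and 13.9 CPM in controls (log2 fold change 2.16 ± 0.67 SE). Cxxc1, which brings the SETD1 histone H3 lysine 4 methyltransferases to CpG islands, had 29.5, 58.7 and 65.0 CPM with 10% ethanol sires, against 14.3, 11.1 and 7.92 CPM in controls (2.20 ± 0.80). Lrrc42, a leucine-rich repeat protein, had 109, 71.2 and 87.7 CPM with 10% ethanol sires, against 32.5, 34.6 and 25.9 CPM in controls (1.52 ± 0.52). In each, the lowest library of 10% ethanol sires was well over the highest control. Left out in turn, the libraries moved these 3 fold changes between 1.99 and 2.46, 2.003 and 2.48, and 1.36 and 1.66.

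Signalling, metabolic and nucleolar genes made up the rest. Arhgef16, a RHOG exchange factor, had 112, 146 and 213 CPM with 10% ethanol sires, against 37.9, 69.8 and 26.97 CPM in controls (1.80 ± 0.60). Prkce, protein kinase C epsilon, had 10.3, 19.8 and 10.0 CPM with 10% ethanol sires, against 2.20, 1.05 and 0.586 CPM in controls (3.37 ± 1.22). Rhebl1, a small GTPase that can activate mTORC1, had 99.5, 136 and 148 CPM with 10% ethanol sires, against 36.7, 27.9 and 40.2 CPM in controls (1.87 ± 0.70). The groups stood apart in all of these. Aacs, the acetoacetyl-CoA synthetase that turns ketone bodies to lipid synthesis, had 407, 269 and 271 CPM with 10% ethanol sires, against 139, 134 and 177 CPM in controls (1.08 ± 0.41). Tbl3, a component of the small subunit processome of the nucleolus, had 120, 107 and 165 CPM with 10% ethanol sires, against 38.6, 70.3 and 35.5 CPM in controls (1.44 ± 0.55). Zswim3 (1.89 ± 0.67), a zinc finger protein, and Tango2 (2.63 ± 1.0), whose loss in humans gives a metabolic crisis disorder, were higher as well, and 10% ethanol 2 was the highest library of both at 125 and 54.2 CPM.

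Mitochondrial ribosomal RNA was the most abundant of the higher genes. mt-Rnr2, the 16S rRNA of the mitochondrial ribosome, took 14.7, 10.4 and 11.3 percent of all counts with 10% ethanol sires, against 5.98, 8.87 and 5.18 percent in controls. On the CPM scale this was 150756, 104602 and 107039 with 10% ethanol sires, against 53873, 75469 and 51698 in controls (log2 fold change 1.001 ± 0.37 SE). Nuclear 18S rRNA, Rn18s, named after its values were seen, took 1.92 percent in 10% ethanol 1 and 1.28 percent in control 1, and at most 0.119 percent in the other 4. The labels do not say how ribosomal RNA was depleted or avoided, and its part in these shares was not tested. The mitochondrial messenger RNAs did not follow the rRNA. All 13 lay below 0, with a median of -0.55, and their summed CPM was 6517, 5773 and 14747 with 10% ethanol sires, against 9249, 9606 and 18897 in controls. The median was 0.16 without control 3 and 0.03 with header form as a term, and short-header libraries 10% ethanol 3 and control 3 held the highest sums of their groups.

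**Figure D3:**
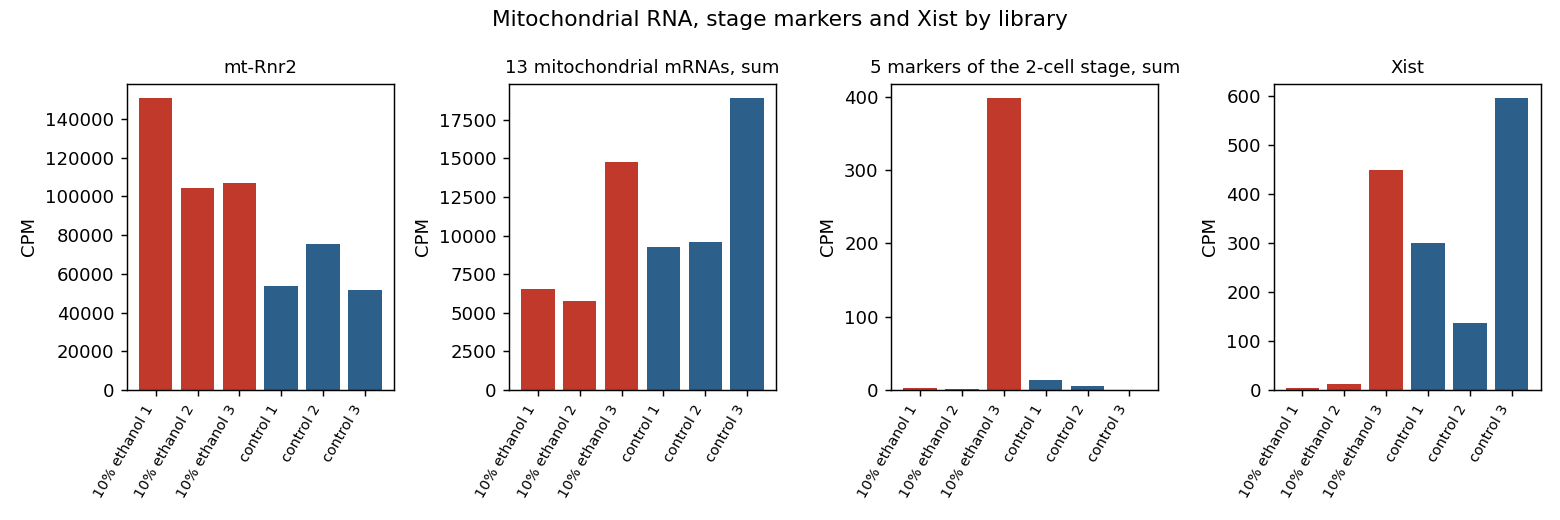
Bars give CPM in each library, 10% ethanol sires in red and controls in blue, for mt-Rnr2, the sum of the 13 mitochondrial mRNAs, the sum of 5 markers of the 2-cell stage and Xist. mt-Rnr2 is higher in all 3 libraries of 10% ethanol sires, the mRNA sum is highest in control 3, the 2-cell sum stands out in 10% ethanol 3, and Xist is low in 10% ethanol 1 and 2.

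Most genes that DESeq2 called were nearly silent in 1 of the groups. All 10 are named, after their values were seen. Egfr, the receptor for epidermal growth factor, had 0 counts in all 3 libraries of 10% ethanol sires, against 9.72, 1.81 and 4.98 CPM in controls. This was at least 80.0-fold lower, taking 3 counts over the group as the limit of a count of 0 (DESeq2 adjusted p = 0.0127). D7Bwg0826e, a gene of unassigned function, had 2 counts over the 10% ethanol group and 832 over the controls, a pooled ratio of 492 with a counting interval of 136 to 4067, and its controls spanned 46.8, 9.14 and 0.880 CPM (DESeq2 adjusted p = 7.37e-05). Its fitted log2 fold change was -8.81, or -6.93 without control 1. Brdt, the bromodomain protein of male germ cells, had 1.46, 1.02 and 1.71 CPM with 10% ethanol sires, against 9.96, 9.28 and 35.2 CPM in controls (-3.69 ± 1.04, DESeq2 adjusted p = 0.0166). Fam221a (DESeq2 adjusted p = 0.0166) and Lcorl (0.0350) belong here too. Egfr thus rested on low control levels that varied several-fold. The controls of D7Bwg0826e varied far more widely, and 573 of their 832 counts came from control 1.

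In others of the 10, a single library held most of the counts. Arl5c, an ARF-like GTPase, had 1.67, 0.0731 and 188 CPM with 10% ethanol sires and 0 counts in all 3 controls, at least 474-fold higher on the pooled counts, of which nearly all came from 10% ethanol 3 (DESeq2 adjusted p = 0.0154). Its fitted log2 fold change by edgeR was 12.94, or 6.84 without that library. Mthfsd, a methenyltetrahydrofolate synthetase domain protein, had 12.7, 6.10 and 4.56 CPM with 10% ethanol sires, against 8.002, 27.6 and 519 CPM in controls, where control 3 held the high value (DESeq2 adjusted p = 0.0294). Uba1y, the Y-linked ubiquitin-activating enzyme, was present in all 3 libraries of 10% ethanol sires. It had 8.21, 1.39 and 7.52 CPM with 10% ethanol sires and 0 counts in controls, at least 73.6-fold higher (DESeq2 adjusted p = 0.00462); its X-linked copy is near-identical in places, so its reads are uncertain. The predicted genes Gm37250 (DESeq2 adjusted p = 0.000126) and 7330423F06Rik (1.29e-09) had at most 16.8 and 1.96 CPM in any of the 6 libraries. By edgeR none of the 10 passed.

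Gene lists are described next by how many tested members lay above and below a log2 fold change of 0, and by their median, beside -0.05 and 47.1 percent above 0 for all genes. The members named by rule from each list were picked for small p among those whose groups did not overlap. Their separation restates that choice and does not bear on the direction of the list. The median kept its sign with each library left out in 18 of the 48 lists. Among those with medians at least 0.2 from 0 were pluripotency, glycolysis, the TCA cycle, the nuclear respiratory complexes, autophagy, antioxidant, chromatin remodelling and immediate early genes. In the other 30 lists leaving out 1 library turned the sign. It turned in 10, 12 and 13 lists without control 1, 2 and 3, and in 5, 5 and 11 without 10% ethanol 1, 2 and 3. The 11 turned without 10% ethanol 3 were the primitive endoderm, adhesion, 2-cell, nucleolus, heat shock, folate, p53, cell cycle, sterol, X and Y, and blood lists. The gene filter was rerun with each library left out, so the tested members of a list could change too. The part of that change in these turns was not tested. With library size as the only scaling, the sign turned for the trophectoderm, cavitation, oocyte, cell cycle and aminoacyl-tRNA synthetase lists, whose medians lay near 0.

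**Figure D4:**
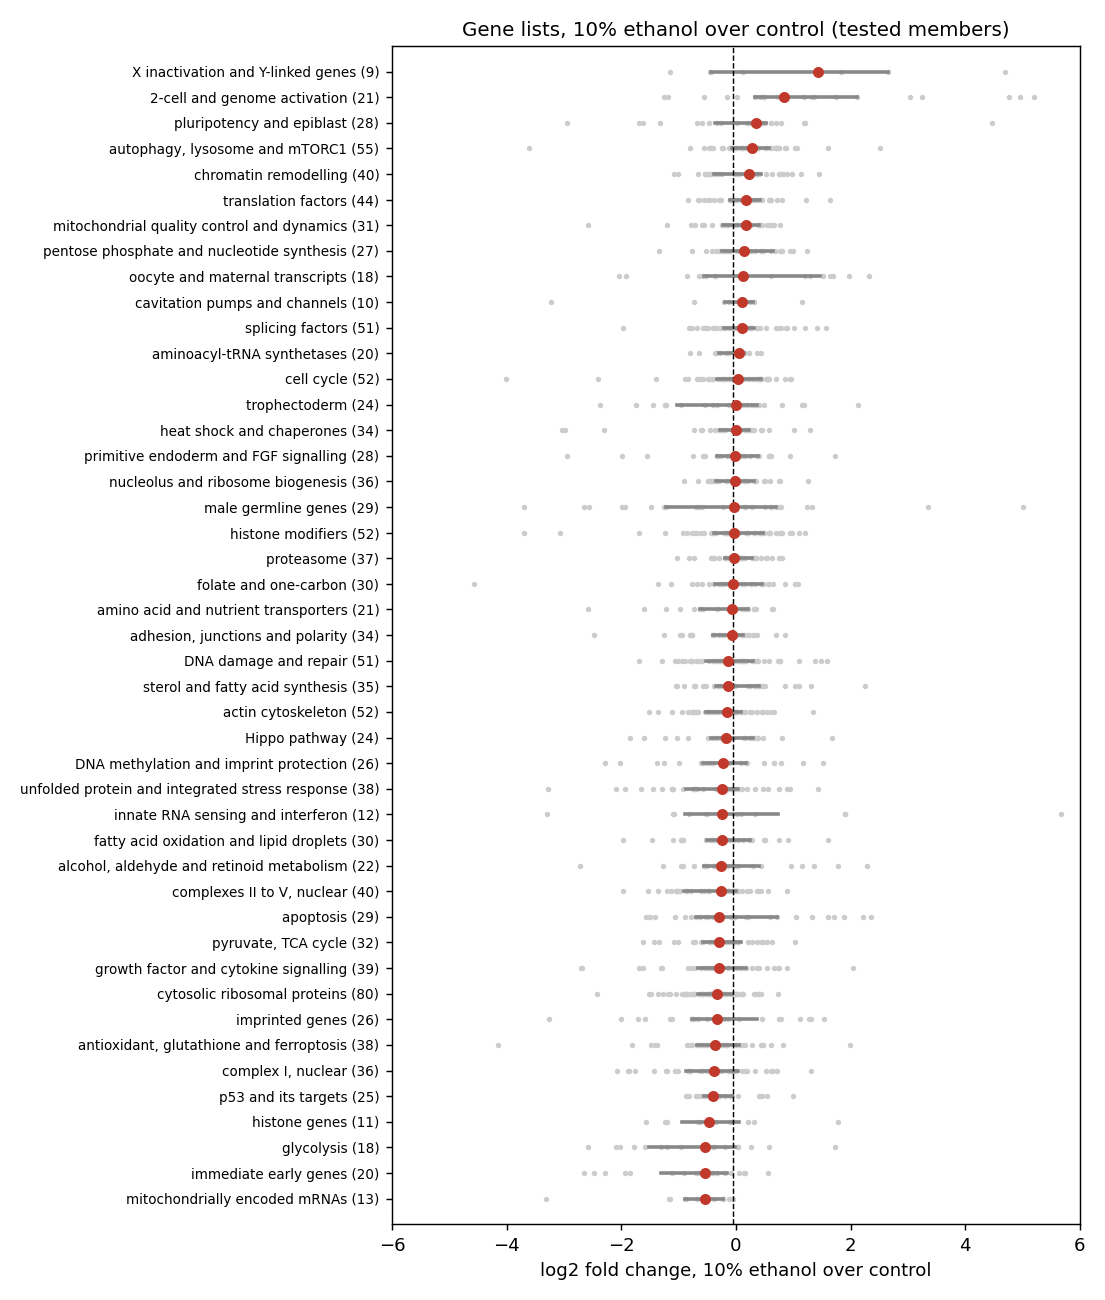
Log2 fold change of 10% ethanol over control for the tested members of each list with at least 5 of them (grey points), the interquartile range of the members (grey bar) and their median (red point); the dashed line is the median of all tested genes, -0.05, the number tested is in parentheses, and points beyond the axis are not drawn. Medians run from -0.55 for mitochondrially encoded mRNAs to 1.42 for the 9 X inactivation and Y-linked genes.

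Glycolytic enzymes leaned lower. Of 18 tested, 5 lay above 0 and 13 below, with a median of -0.53. Gapdh, the enzyme that oxidises glyceraldehyde 3-phosphate, had 16.5, 45.9 and 96.7 CPM with 10% ethanol sires, against 163, 186 and 127 CPM in controls (log2 fold change -1.58 ± 0.85 SE). Pgk1, phosphoglycerate kinase, had 9.09, 15.9 and 25.1 CPM with 10% ethanol sires, against 25.8, 28.5 and 69.9 CPM in controls (-1.31 ± 0.76). The groups did not overlap in either, though 10% ethanol 3 and control 1 nearly met for Pgk1, and reads of both genes may be shared with pseudogenes. Eno1, an enolase, and Hk2, a hexokinase, both added after their values were seen, stood at 282 and 478 CPM in control 2 and at or below 23.7 and 62.7 CPM in the other 5 libraries. Without control 2 the median of the list was -0.03.

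The later steps of energy metabolism lay slightly lower. In the pyruvate and TCA cycle list 10 of 32 were above 0 and 22 below, with a median of -0.30. Suclg1, a subunit of succinyl-CoA ligase, had 248, 246 and 299 CPM with 10% ethanol sires, against 399, 459 and 345 CPM in controls (-0.60 ± 0.46), and Idh2, the mitochondrial NADP isocitrate dehydrogenase, was also lower without overlap (-1.07 ± 0.71). Of nuclear genes of complex I, 10 of 36 lay above 0 and 26 below (median -0.38), and of complexes II to V, 10 of 40 above and 30 below (-0.26). Ndufb3, an accessory subunit of complex I, had 3.55, 1.39 and 4.79 CPM with 10% ethanol sires, against 5.31, 11.7 and 18.3 CPM in controls (-1.86 ± 1.04), and Ndufs6, another accessory subunit, was at -1.07 ± 1.05. Within complexes II to V the directions were mixed: Atp5o, a stalk subunit of ATP synthase, had 46.0, 63.7 and 58.8 CPM with 10% ethanol sires, against 76.7, 79.2 and 134 CPM in controls (-0.78 ± 0.53), while Cox7a2l, which helps join complexes III and IV, had 128, 110 and 111 CPM with 10% ethanol sires, against 39.2, 79.2 and 70.2 CPM in controls (0.89 ± 0.49). Without control 3 the medians of complex I, complexes II to V and the TCA list were -0.24, -0.03 and -0.01.

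Mitochondrial quality control and dynamics leaned the other way, with 19 of 31 above 0, 12 below and a median of 0.17, which was -0.06 with header form as a term. Mfn1, the outer membrane fusion protein, had 239, 256.01 and 183 CPM with 10% ethanol sires, against 147, 161 and 140 CPM in controls (0.60 ± 0.44), and Nrf1, a transcription factor of respiratory genes, was at 0.42 ± 0.52 without overlap. The pentose phosphate and nucleotide synthesis list had 16 of 27 above 0 and 11 below (median 0.15). Impdh2, the rate-limiting enzyme of guanine nucleotide synthesis, had 1564, 1256 and 1234 CPM with 10% ethanol sires, against 756, 758 and 863 CPM in controls. The groups did not overlap, and the log2 fold change of 0.77 ± 0.36 ranged from 0.66 to 0.85 with each library left out.

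Cytosolic ribosomal protein genes were mostly lower by a small amount. Of 80 tested, 14 lay above 0 and 66 below, with a median of -0.33. Rpl38, of the large subunit, had 48.0, 31.7 and 82.7 CPM with 10% ethanol sires, against 97.3, 115 and 249.7 CPM in controls (-1.51 ± 0.65). The groups did not overlap, and ribosomal protein genes share reads with many pseudogenes. Control 3 stood apart in this list. Against the mean of the controls its median gene stood at -0.36, -0.55 and 0.02 in the 3 libraries of 10% ethanol sires and at -0.39, -0.37 and 0.80 in the controls, and without control 3 the median fold change was 0.11, and with header form as a term -0.10.

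Other parts of protein synthesis and turnover were near the level of all genes or above it. Translation factors had 28 of 44 above 0 and 16 below (median 0.17): Eif3h, a subunit of the eIF3 scaffold, had 1341, 956 and 1674 CPM with 10% ethanol sires, against 796, 880 and 951 CPM in controls (0.60 ± 0.37), and Etf1, the release factor, was at 0.35 ± 0.36. Nucleolus and ribosome biogenesis genes stood at 17 above and 19 below of 36 (median -0.01), with Polr1c, a subunit shared by RNA polymerases I and III, at 0.59 ± 0.50. Aminoacyl-tRNA synthetases had 11 above and 9 below of 20 (median 0.06) and a narrow range of -0.80 to 0.44. The proteasome had 17 above and 20 below of 37 (median -0.04). Its lower members by rule were Psmb3, a core subunit, with 25.6, 25.7 and 18.5 CPM with 10% ethanol sires, against 70.8, 36.0 and 35.5 CPM in controls (-1.03 ± 0.64), and Psmc4, an ATPase of the cap (-0.73 ± 0.57). Splicing factors had 32 of 51 above 0 and 19 below (median 0.11). Snrpc, a protein of the U1 spliceosome particle, had 1989.9, 1681 and 1526 CPM with 10% ethanol sires, against 1346, 860.2 and 609 CPM in controls (0.88 ± 0.40). Raly, an hnRNP protein, had 338, 268 and 123 CPM with 10% ethanol sires, against 113, 103 and 101 CPM in controls (1.20 ± 0.49), with 10% ethanol 3 close to the controls.

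**Figure D5:**
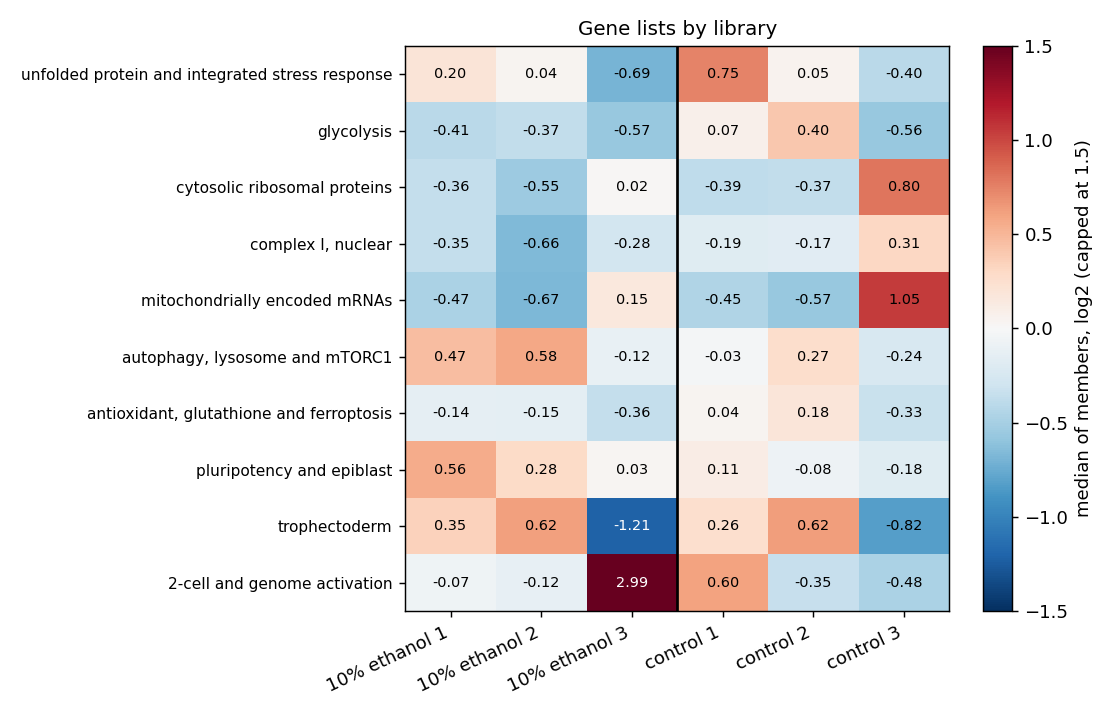
Each cell gives the median over the tested members of a list of the log2 difference between a library and the mean of the 3 controls, with 10% ethanol libraries left of the black line and control libraries right of it; red is higher and blue lower, with colours capped at 1.5. Single libraries stand out within lists: control 3 in ribosomal proteins (0.80) and mitochondrial mRNAs (1.05), control 1 in the unfolded protein list (0.75) and 10% ethanol 3 in the 2-cell (2.99) and trophectoderm (-1.21) lists.

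Lineage genes were divided. The pluripotency and epiblast list had 19 of 28 above 0 and 9 below, with a median of 0.34, although Fgf4, its gene of smallest p, was lower. Klf4, a reprogramming factor, had 54.4, 40.1 and 29.8 CPM with 10% ethanol sires, against 17.0, 10.1 and 27.6 CPM in controls (log2 fold change 1.19 ± 0.72 SE), and the gap between 10% ethanol 3 and control 3 was narrow. The median was 0.70 among long-header libraries and -0.38 among short-header libraries. Trophectoderm genes stood 12 above and 12 below of 24 (median 0.01, or -0.91 with header form as a term, 0.41 without 10% ethanol 3 and -0.44 without 10% ethanol 2). In the Hippo list, the pathway that reads cell position, 10 of 24 lay above 0 and 14 below (-0.18). Tead4, the transcription factor through which YAP drives trophectoderm, had 204, 170 and 162 CPM with 10% ethanol sires, against 137, 111 and 58.2 CPM in controls (0.81 ± 0.47). Wwc1, the upstream Hippo protein KIBRA, had 14.8, 9.14 and 4.33 CPM with 10% ethanol sires, against 27.5, 15.1 and 24.3 CPM in controls (-1.24 ± 0.79). None of these 3 lists held a gene called by either tool. Over all tested genes edgeR called 0 and DESeq2 0.0801 percent, so this absence says nothing particular about lineage genes.

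Genes of compaction and cavitation held few members without overlap, as lists of this size would at the 8.06 percent of all tested genes. Adhesion, junction and polarity genes had 12 of 34 above 0 and 22 below (median -0.07); Myh10, a nonmuscle myosin heavy chain, had 37.2, 77.6 and 76.4 CPM with 10% ethanol sires, against 103, 96.7 and 127 CPM in controls (-0.77 ± 0.52), and was the only member without overlap. Cavitation pumps and channels had 6 above and 4 below of 10 (median 0.11), with none separated. The actin cytoskeleton list had 18 of 52 above 0 and 34 below (median -0.15). Limk2, a kinase that inactivates cofilin, had 100.3, 82.5 and 66.1 CPM with 10% ethanol sires, against 236, 189.7 and 113 CPM in controls (-1.11 ± 0.59), and Diaph1, a formin, was higher at 0.67 ± 0.63.

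Genes of the 2-cell stage were highest in 10% ethanol 3. In the 2-cell and genome activation list 17 of 21 lay above 0 and 4 below, with a median of 0.84 that became -0.46 without that library. Obox6, an oocyte-type homeobox gene, had 101, 66.9 and 215.5 CPM with 10% ethanol sires, against 43.8, 61.7 and 63.2 CPM in controls (1.18 ± 0.65, or 0.59 without 10% ethanol 3). The groups did not overlap, with 10% ethanol 2 close to control 3. Oocyte and maternal transcripts had 10 of 18 above 0 and 8 below (median 0.12, which ran from -0.04 without 10% ethanol 1 to 1.099 without control 2), and 16 further genes of that list were too low to test. The 7 oocyte markers summed to 29.6, 7.35 and 21.5 CPM with 10% ethanol sires, against 7.19, 6.29 and 4.40 CPM in controls, with Figla at 0 throughout; their part in other results was not tested.

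Lysosomal and autophagy genes leaned higher. Of 55 tested, 39 lay above 0 and 16 below, with a median of 0.28, and 7 were higher without overlap against 1 lower (4.39 and 3.67 percent of all genes). Ctsl, a lysosomal cysteine protease, had 1671, 2001 and 1605 CPM with 10% ethanol sires, against 790, 1038 and 1058 CPM in controls (0.87 ± 0.42, and 0.76 to 0.95 with each library left out). The other 6 were Becn1 (0.70), Atg7 (0.87), Atg2a (0.61) and Wipi1 (2.51), which act in forming autophagosomes, Lamp2 (0.76), a lysosomal membrane protein, and Ctsz (1.03), another cathepsin; they are named because they are all of the separated members, after their values were seen. The lower one was Lamtor2. With header form as a term the median of the list was 0.04, and among short-header libraries -0.07.

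Lipid and nutrient genes were mixed. In sterol and fatty acid synthesis 14 of 35 lay above 0 and 21 below (median -0.14). Lss, lanosterol synthase, had 128, 130.1 and 127 CPM with 10% ethanol sires, against 31.6, 54.2 and 126 CPM in controls (0.86 ± 0.56), so that control 3 reached the level of the other group, and Elovl1, a fatty acid elongase, was at 1.31 ± 1.34. In fatty acid oxidation and lipid droplets 11 of 30 lay above 0 and 19 below (median -0.25, or 0.08 without control 1). Fabp3, a fatty acid carrier, had 32.4, 10.4 and 33.2 CPM with 10% ethanol sires, against 70.6, 75.2 and 62.9 CPM in controls (-1.46 ± 0.69). Acadl, the long-chain acyl-CoA dehydrogenase, had 162, 176 and 269.7 CPM with 10% ethanol sires, against 326, 306 and 543 CPM in controls (-0.95 ± 0.49). Both were separated, as the rule that named them required, and Fabp3 stayed between -1.69 and -1.09 with each library left out. Amino acid and nutrient transporters had 10 above and 11 below of 21 (median -0.06), with Slc7a1, a cationic amino acid transporter, at -2.58 ± 1.55.

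Antioxidant genes and those of alcohol metabolism were examined because ethanol is oxidised through acetaldehyde. Of the antioxidant, glutathione and ferroptosis list 11 of 38 lay above 0 and 27 below, with a median of -0.37 that stayed between -0.41 and -0.30 with each library left out and was -0.41 with header form as a term. Glrx, the cytosolic glutaredoxin, named after its values were seen, had 1 count over the 10% ethanol group and 110 over the controls, a pooled ratio of 130.03 with a counting interval of 22.9 to 5182. It was the only separated member, where 8.06 percent of all tested genes separated. Alcohol, aldehyde and retinoid genes had 8 of 22 above 0 and 14 below (median -0.25), and 21 of the 43 listed were too low to test. The nuclear receptors Rxra and Rarg, which bind retinoids, were higher: Rxra had 102, 96.4 and 66.1 CPM with 10% ethanol sires, against 39.3, 65.4 and 14.7 CPM in controls (1.14 ± 0.69), and Rarg was at 1.36 ± 0.89. The margin for Rxra was under 1 CPM. Folate and one-carbon genes stood at 14 above and 16 below of 30 (median -0.05), with Mthfsd the lowest.

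Chromatin genes showed no common direction: remodelers leaned slightly higher, while DNA methylation, imprinted and histone genes leaned lower. Chromatin remodelling genes had 25 of 40 above 0 and 15 below (median 0.24, or 0.02 without 10% ethanol 3). Ssrp1, of the FACT histone chaperone, had 254, 234 and 588 CPM with 10% ethanol sires, against 143, 221 and 215.8 CPM in controls (0.89 ± 0.50, or 0.35 without 10% ethanol 3), and Smarcc1, of the SWI/SNF complex, had 123, 123 and 146 CPM with 10% ethanol sires, against 55.6, 90.5 and 74.9 CPM in controls (0.83 ± 0.47). Histone modifiers stood at 25 above and 27 below of 52 (median -0.04), with Brdt lower and Kdm5c, an X-linked histone H3 lysine 4 demethylase, at 1.21 ± 0.75. DNA methylation and imprint protection genes had 9 of 26 above 0 and 17 below (-0.23, or -0.0032 without control 3). Imprinted genes had 8 of 26 above 0 and 18 below (-0.33). Igf2r, the maternally expressed receptor that clears IGF2, had 395, 423 and 626 CPM with 10% ethanol sires, against 271, 332 and 250.1 CPM in controls (0.76 ± 0.44), without overlap. Histone genes, 11 tested of 26, had 3 above and 8 below (-0.47).

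Stress and cell cycle genes came next. The p53 list had 6 of 25 above 0 and 19 below, with a median of -0.39 that was 0.09 without 10% ethanol 3 and 0.01 without control 2. Ei24, a p53-induced membrane protein of the endoplasmic reticulum, had 391.8, 307 and 229 CPM with 10% ethanol sires, against 143, 208 and 114 CPM in controls (0.996 ± 0.45). Mdm4, an inhibitor of p53, had 70.9, 73.3 and 79.3 CPM with 10% ethanol sires, against 192, 91.3 and 112 CPM in controls (-0.82 ± 0.52). Apoptosis genes had 11 of 29 above 0 and 18 below (-0.29, or 0.07 without control 3), with Birc3, an inhibitor of apoptosis, at 1.33 ± 0.74 and Apaf1, the core of the apoptosome, at -0.78 ± 0.56. DNA damage and repair genes had 23 above and 28 below of 51 (-0.13), with Rpa1, which coats single-stranded DNA, at 0.77 ± 0.77 and Mre11a, a nuclease of break repair, at -0.38 ± 0.72. The cell cycle list had 28 above and 24 below of 52 (0.03): Ccna2, cyclin A2, had 372, 345 and 335 CPM with 10% ethanol sires, against 267, 220.4 and 228 CPM in controls (0.56 ± 0.38), and Cdc25b, a phosphatase that activates CDK1, was at -2.41 ± 1.30. Immediate early genes had 4 of 20 above 0 and 16 below, with a median of -0.54 (-0.19 without control 2), and Zfp36l1, an RNA-binding protein that hastens mRNA decay, had 1.52, 3.18 and 3.76 CPM with 10% ethanol sires, against 36.9, 7.44 and 8.503 CPM in controls (-2.64 ± 1.09, or -1.49 without control 1).

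Growth factor and cytokine signalling genes had 13 of 39 above 0 and 26 below (median -0.30, or 0.10 without control 2). Acvr1b, an activin receptor, had 4.44, 0.658 and 0 CPM with 10% ethanol sires, against 17.9, 7.98 and 7.77 CPM in controls (-2.70 ± 1.63, or -4.95 without 10% ethanol 1), and Egfr was the member with 0 counts in all 3 libraries of 10% ethanol sires. Innate RNA sensing and interferon genes stood at 6 above and 6 below of 12 (-0.25, or 0.33 without control 1), with 16 too low to test. Oasl2, an interferon-induced gene, had 12.5, 35.4 and 12.5 CPM with 10% ethanol sires, against 3.92, 8.96 and 3.23 CPM in controls (1.90 ± 1.01), and Tbk1, a kinase of that pathway, had 29.7, 22.2 and 32.5 CPM with 10% ethanol sires, against 50.4, 72.2 and 56.3 CPM in controls (-1.08 ± 0.81). The 2 genes lay on opposite sides, each without overlap.

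Germline and sex-linked genes closed the survey. Male germline genes had 14 above and 15 below of 29 (median -0.03); Tex15, a meiotic gene, had 4.97, 1.79 and 9.58 CPM with 10% ethanol sires, against 64.1, 11.2 and 21.1 CPM in controls (-2.57 ± 1.09, or -1.57 without control 1). In the X inactivation and Y-linked list 6 of 9 tested lay above 0 and 3 below, with a median of 1.42 that was -0.14 without 10% ethanol 3. Eif2s3y, a Y-linked translation factor, had 16.05, 16.5 and 24.7 CPM with 10% ethanol sires, against 2.53, 8.85 and 9.97 CPM in controls (1.42 ± 0.78). Xist, the RNA that silences an X chromosome in females, named after its values were seen, had 3.61, 11.5 and 449.9 CPM with 10% ethanol sires, against 299, 137 and 596 CPM in controls. It was low in 10% ethanol 1 and 2 only, and the number of male and female embryos per library is not given, so its part in any result was not tested. The longer lists of cells from outside the embryo were nearly untestable: 4 of 25 cumulus and granulosa genes (2 above, 2 below, median -0.84), 2 of 14 blood genes (1 above, 1 below, 1.26) and 1 of 20 sperm genes, Odf2, an outer dense fibre protein also found in centrosomes, at -1.02 ± 0.71, passed the filter on low counts. The 25 cumulus and granulosa genes summed to 19.7, 9.50 and 77.0 CPM with 10% ethanol sires, against 38.6, 9.21 and 18.2 CPM in controls. The highest sum was that of 10% ethanol 3, of which 69.7 CPM came from Amhr2, the anti-Mullerian hormone receptor, while Kitl, the KIT ligand, gave 28.3 CPM of the sum in control 1. The 20 sperm genes summed to 18.0, 17.1 and 11.5 CPM with 10% ethanol sires, against 40.2, 36.0 and 25.2 CPM in controls, most of it Odf2. The 14 blood genes summed to 3.35, 0.621 and 16.6 CPM with 10% ethanol sires, against 11.1, 3.32 and 0 CPM in controls. Amhr2 and Kitl are named after their values were seen, and the part of these genes in other results was not tested.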

How the data were processed

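The deposited files held raw counts per gene, 1 file per library, which the authors obtained with featureCounts on the build GRCm39, per the submitters' processing notes, which also name DESeq2. The aligner RNA STAR appears in some column headers, per the file headers. Versions, annotation and strand setting are not given in the sources used here, so counts of pseudogene-rich, near-identical, overlapping and antisense genes are uncertain. Of 53819 listed rows, 1442 had no symbol.

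Genes were filtered with filterByExpr by group, leaving 12488, and all 9 libraries were scaled with TMM factors and fitted with 3 groups in edgeR's quasi-likelihood model, so that the groups shared 1 estimate of spread; the contrast was 10% ethanol minus control. P-values were adjusted by Benjamini-Hochberg over all tested genes and read at 0.05. Standard errors came from the fold change and its F statistic, and intervals are at 95 percent. A count of 0 was read against 3 counts over the group; this limit and the pooled ratios cover counting error only. Scripts were tested on simulated data. Versions were edgeR 4.0.16, DESeq2 1.42.0 and limma 3.58.1 in R 4.3.3.

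The comparison, the 48 gene lists and the rule for named genes were chosen with earlier results of these data known. Genes were named if they were among the 12 of smallest p in each direction with a mean of at least 10 CPM in a group and no overlap, without predicted symbols. The rule added the 2 such genes of smallest p in each list, the 10 most abundant protein genes, the 10 most abundant genes with an interval within 2-fold, and cell type markers. Others are marked where they stand. A gene that the rule took is not reported here. No set test or list p-value was used. Alternatives were other scalings, filters, tools and subsets, and each library left out; long-header or short-header libraries alone were added after seeing the data. Sequences are RefSeq promoters of GRCm38.p6, used by symbol; exon lengths are from GENCODE M21, and no coordinates were converted. Replicate numbers follow accession order and pair nothing.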

Additional observations from a re-analysis of the deposited data

How the results depend on the processing

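The count of 0 genes called held under RLE scaling, library size alone, looser and stricter filters, a robust fit, header form as a term, mitochondrial and rRNA genes left out, a threshold of 0.1, only the 6 libraries compared, limma voom and each of the 9 libraries left out. DESeq2 called 10, and fits to long-header or short-header libraries alone, where a group can be 1 library assumed to vary like the others, called 9 (all lower) and 2 (both higher). The count at an unadjusted p under 0.05 was 992 with the looser filter, 482 by DESeq2, 576 by limma voom, 418 with the 6 libraries alone and 1148 with long-header libraries alone, and ran from 261 to 497 with each library left out. The cause of these moves was not tested. The number of genes tested also differed from 12488. It was 21011 with the looser filter, 12126 with the 6 libraries alone, 15643 with long-header libraries alone and 13479 to 14324 with each library left out.

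Of 2031 fold changes of named genes under an alternative, 2014 kept their direction or side of the threshold, or moved by less than their spread, 6 passed it and 11 moved further. The 6 were Arl5c, D7Bwg0826e, Fam221a, Brdt and Lcorl by DESeq2, and Arl5c with short-header libraries alone (adjusted p = 0.00145 by edgeR). Most of the named genes were chosen because their groups did not overlap, so a kept direction was largely fixed by that choice. It is no sign of a stable size. Of the 97 genes in this count, 9 moved by 1 or more on the log2 scale with 1 of the 6 libraries left out. Of 1028 list medians 96 moved by more than the spread between replicates. No paired analysis was possible because the labels give the groups no shared replicate numbers. Library depth, from 6813356 to 27619281 counts, and 3 libraries a group limit what could be seen: an exact permutation test of 3 against 3 cannot go below 0.10.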

Other observations

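Morulae of sires given 6% ethanol were measured in the same series against the same controls, so the values are set side by side without a test of overlap. Most of the genes named here overlapped the controls with 6% ethanol sires. Some genes that separated with 10% ethanol sires lay on the same side of the controls in all 3 libraries of 6% ethanol sires. The controls are shared, so a gene with extreme control values tends to lie on the same side at both doses. Hsp90b1, the endoplasmic reticulum chaperone, had 39.1, 70.2 and 40.2 CPM with 10% ethanol sires and 39.2, 44.5 and 33.3 CPM with 6% ethanol sires, against 364, 87.7 and 122 CPM in controls. Lcorl had 1.57, 1.13 and 1.14 CPM with 10% and 1.101, 1.91 and 0.771 CPM with 6% ethanol sires, against 12.002, 31.8 and 5.57 CPM in controls. Egfr had 0 counts with 10% and 0.339, 0 and 0.661 CPM with 6% ethanol sires, against 9.72, 1.81 and 4.98 CPM in controls. Fam221a, Glrx2, Gapdh, Pgk1 and Fabp3 were likewise below all controls at both doses. Aacs, Lrrc42, Ctsl, Igf2r, Eif2s3y and Uba1y were above all controls at both.

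Other genes separated with 10% ethanol sires and overlapped the controls with 6% ethanol sires. Fgf4 had 9.51, 7.90 and 13.2 CPM with 10% and 7.15, 15.1 and 118 CPM with 6% ethanol sires, against 92.8, 83.5 and 59.8 CPM in controls, so that a single library of 6% ethanol sires reached the controls. Hmbox1 had 42.1, 92.3 and 93.7 CPM with 10% and 24.7, 7.64 and 15.3 CPM with 6% ethanol sires, against 21.6, 15.3 and 13.9 CPM in controls. Cxxc1 had 29.5, 58.7 and 65.0 CPM with 10% and 7.66, 3.82 and 23.7 CPM with 6% ethanol sires, against 14.3, 11.1 and 7.92 CPM in controls. Raly had 338, 268 and 123 CPM with 10% and 76.8, 51.7 and 45.5 CPM with 6% ethanol sires, against 113, 103 and 101 CPM in controls, and thus lay above all controls at 10% and below all of them at 6%. The difference between the doses was not tested here.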
